A study of Mus musculus with 2 samples.

Results

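The regions described here were open chromatin regions of mouse liver whose centre lay within 1000 bp of the 3′ end of the closest gene and more than 3000 bp from its transcription start site (TSS). The position alone chose them, and no read count was used. Of 69549 distinct regions in the deposited comparison of the 2 libraries, 49654 were more than 3000 bp from the closest TSS, and 805 of these, at 742 genes, met the rule for a 3′ end. The remaining 48849 distal regions served for comparison. Chromatin accessibility was measured by ATAC-seq, in which a transposase cuts and tags DNA that is not covered by nucleosomes, so that reads pile up over open sites. One library came from the livers of *Mettl3* flox/flox mice, which carry loxP sites in both *Mettl3* alleles and no Cre. The other came from *Mettl3*-HKO mice, which carry the same floxed alleles together with an Alb-Cre transgene, whose albumin promoter drives the recombinase in hepatocytes. Mice of both groups were on the C57BL/6 background, ate a chow diet and were 8 weeks old. Each library was made from pooled livers of several mice, so there was 1 library per genotype, no replicate error could be had, and each interval below covers counting error only and compares these 2 libraries rather than the genotypes.

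METTL3 is the catalytic subunit of the complex that places N6-methyladenosine (m6A) on RNA, a mark that is concentrated near stop codons and in 3′ untranslated regions. At the 3′ end of a gene the transcript is cleaved and polyadenylated, while RNA polymerase II goes on transcribing past the cleavage site before it leaves the template. Open chromatin in this stretch can belong to an enhancer or to the promoter of the next gene.

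Some of these regions reached the start of a neighbouring gene. Of the 805 regions, 19 (2.36%) overlapped the window around a RefSeq transcription start (GRCm38.p6), a share close to the 2.49% of the other distal regions. The 4 sequences below are the bases before the first annotated start of a neighbour that lay inside the region, beyond the 3′ end and outside every RefSeq gene. They are shown because they place a promoter directly behind the end of another gene. Capitals mark the letters searched on both strands, which were GGGCGG for the GC box, CCAAT for the CCAAT box, TATAAA for the TATA box, and CCGGAA for the core of ETS factor sites. The capitals did not overlap one another, and a match on the reverse strand shows as its complement, so that the GC box shows as CCGCCC.

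Dmtf1 start, behind the 3′ end of Tmem243, chr5:9161807-9162026, minus strand: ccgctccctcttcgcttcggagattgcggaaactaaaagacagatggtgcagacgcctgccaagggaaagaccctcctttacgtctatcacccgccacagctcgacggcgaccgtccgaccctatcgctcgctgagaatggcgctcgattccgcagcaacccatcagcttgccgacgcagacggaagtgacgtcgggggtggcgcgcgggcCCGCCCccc
Nhej1 start, behind the 3′ end of Slc23a3, chr1:75125227-75125392, minus strand: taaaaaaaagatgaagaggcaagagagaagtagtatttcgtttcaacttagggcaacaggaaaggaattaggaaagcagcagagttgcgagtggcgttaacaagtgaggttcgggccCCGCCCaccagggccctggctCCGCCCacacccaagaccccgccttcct
Ppp6r2 start, behind the 3′ end of ENSMUSG00000097578, chr15:89211309-89211450, plus strand: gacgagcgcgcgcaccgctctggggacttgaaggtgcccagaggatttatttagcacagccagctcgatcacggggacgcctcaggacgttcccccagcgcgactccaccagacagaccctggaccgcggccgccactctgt
6330415G19Rik start, behind the 3′ end of Casp16-ps, chr17:23550549-23550798, plus strand: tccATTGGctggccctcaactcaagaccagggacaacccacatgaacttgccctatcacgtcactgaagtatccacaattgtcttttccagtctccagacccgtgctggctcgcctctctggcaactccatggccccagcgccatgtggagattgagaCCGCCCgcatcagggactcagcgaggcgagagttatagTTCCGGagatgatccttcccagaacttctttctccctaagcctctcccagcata

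The *Dmtf1* stretch was 64.1% G and C with 26 CpG dinucleotides, against a median of 52.4% and 6 in the 250 bases before 32817 RefSeq starts. The *Nhej1*, *Ppp6r2* and *6330415G19Rik* stretches, of 166, 142 and 250 bases, were 53.0%, 65.5% and 55.2% G and C with 7, 14 and 9 CpG. The GC box letters stood once in the *Dmtf1* stretch and at 2 places in that of *Nhej1*, and 28.5% and 29.5% of RefSeq starts held them in a stretch of the same length and place. The *6330415G19Rik* stretch held 1 GC box, 1 CCAAT and 1 ETS core, which 32.7%, 33.8% and 12.02% of RefSeq starts held. None of the searched letters stood in the *Ppp6r2* stretch. The region behind *Tmem243* had 1746 counts in *Mettl3* flox/flox and 1487 in *Mettl3*-HKO, and that behind *Slc23a3*, a relative of the vitamin C transporters, had 1146 and 913. The region behind ENSMUSG00000097578 had 804 and 497 counts, and that behind *Casp16-ps*, which also held the tRNA gene n-TRccg2, had 528 and 593.

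The library totals, recovered from the deposited RPM values, were 52826209 reads for *Mettl3* flox/flox and 58038309 for *Mettl3*-HKO, of which 31.7% and 22.3% fell in the 69549 regions. Ratios are log2 values of *Mettl3*-HKO divided by *Mettl3* flox/flox reads scaled to the library total (RPM), with 1 count added to each library. Their median over all regions was −0.38, so a second value, relative to that median, is given where the direction matters. Every hepatocyte marker on the list (8 of 8) had an accessible promoter, with a summed signal of 73.5 RPM in *Mettl3* flox/flox and 48.0 in *Mettl3*-HKO. Promoters of 7 of 8 endothelial markers summed to 3.03 and 7.01 RPM, those of 2 of 8 Kupffer cell and macrophage markers to 1.04 and 1.96, those of 2 of 8 stellate cell markers to 13.8 and 3.05 (log2 ratios of −2.51 and 0.08), and those of 5 of 8 cholangiocyte markers to 15.8 and 12.1. No lymphocyte marker (0 of 8) had a promoter region. Fewer cells of a type and less open chromatin per cell cannot be told apart in such bulk samples.

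The 3′-end regions were small and weak, as most distal regions were. Their median length was 357 bp, against 353 bp for the other distal regions, and their median counts were 78 in *Mettl3* flox/flox and 76 in *Mettl3*-HKO, against 63 and 66. The mean RPM of the 2 libraries ran from 0.257 to 74.1 with a median of 1.45. Of the 805 regions, 347 were centred inside the gene and 458 (56.9%) beyond its end. By the authors' annotation of the centre, 143 lay in a last exon, 129 in a 3′ UTR and 63 in a last intron, and 295 overlapped no gene. The closest gene had a symbol for 527 regions and was protein-coding for 510 of these. Most genes (681) had 1 such region, 59 had 2, and 2 genes had 3.

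Regions did not crowd at the 3′ end. Around the 3′ ends of 7834 genes of at least 10 kb that were closest to a distal region, 158 distal regions were centred in the last 1000 bp of the gene and 159 in the first 1000 bp beyond it. The next 1000 bp on either side held 131 inside and 169 beyond. The 77 members centred between 900 and 1000 bp from the 3′ end had a median log2 ratio of −0.26, and the 70 distal regions just outside, between 1000 and 1100 bp, had −0.33. The plot of regions by position shows the same even spread.

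**Figure D1:**
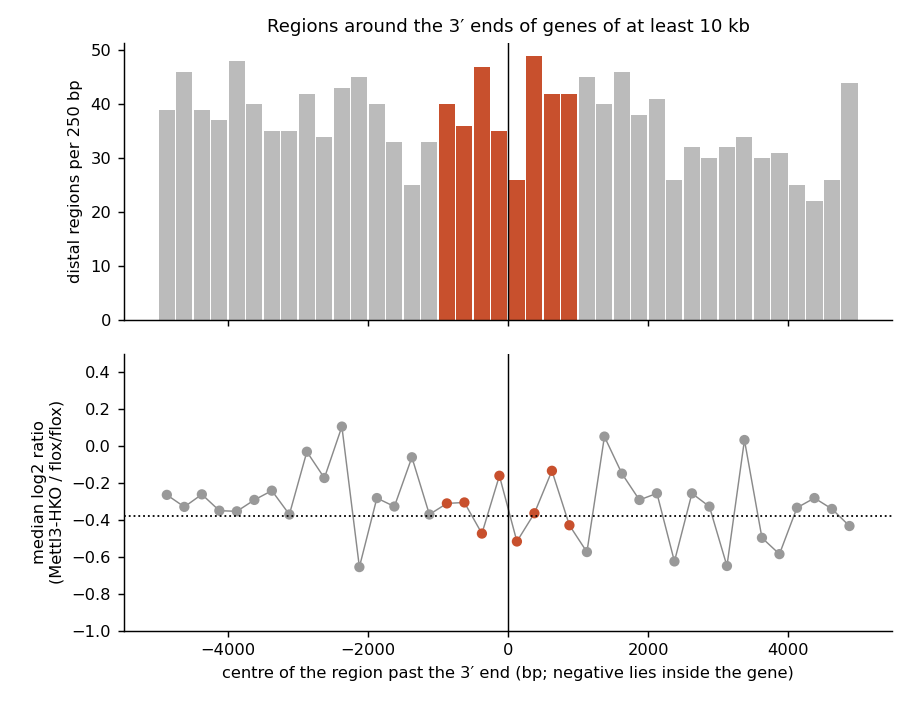
Upper panel, number of distal regions per 250 bp by the distance of their centre past the 3′ end (bp, negative inside the gene), for genes of at least 10 kb. Lower panel, their median log2 ratio between the libraries (Mettl3-HKO over flox/flox), with the median of all regions (−0.38) dotted. Red marks the members, whose bins hold 26 to 49 regions and have medians between −0.52 and −0.13.

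As a group, regions at 3′ ends and other distal regions of the same signal had similar shares past 2-fold. Member medians were lower in most signal groups and higher in the rest. The median log2 ratio of the 805 regions was −0.34, or 0.04 relative to all regions, which turns the direction. Other distal regions were taken in 10 groups of the same mean RPM. The mean of their group medians, weighted by the members in each, was −0.17, or 0.21 relative to all regions. Above that mean lay 358 of the 805. Such a mean and the median over all members are unlike statistics, so their gap is not a difference at the same signal. That holds for each later value of other distal regions of the same signal that spans the groups. From 1.45 to 1.95 RPM the medians of members and others were −0.60 and −0.29, and from 2.63 to 3.71 RPM −0.37 and −0.48. Of the 805, 122 (15.2%) were at least 2-fold higher in *Mettl3*-HKO and 146 (18.1%) at least 2-fold lower, against 13.2% and 18.3% of all 69549 regions and 14.4% and 19.0% of other distal regions of the same signal. Relative to the median of all regions, 176 passed 2-fold upward and 59 downward, against 20.0% and 7.89% of all regions. An exact conditional binomial test with Benjamini-Hochberg adjustment over all regions, which covers counting error alone, kept 122 and 145 of these regions, against 13.2% and 18.2% of all regions.

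The ratio declined with signal throughout at other distal regions, and unevenly at 3′ ends. In the weakest of the 10 groups, with mean RPM of at most 0.507, the median log2 ratio was 0.60 at 3′ ends and 0.77 at other distal regions. There 0 of 81 members had a peak in both libraries, 26 had one in *Mettl3* flox/flox alone and 55 in *Mettl3*-HKO alone. Of the 6368 other distal regions there, 26 had one in both. Regions called in a single library entered through that library, so these medians carry that choice. Its part in the decline was not tested. In the strongest group, from 6.59 RPM up, the medians were −0.67 and −0.68. In that strongest group 5 of 81 3′-end regions (6.17%) were at least 2-fold higher in *Mettl3*-HKO, against 21 of 3781 other distal regions (0.555%), and 16 (19.8%) were at least 2-fold lower, against 23.8%. The next group went the other way, with 1 of 80 (1.25%) at least 2-fold higher against 2.78% of other distal regions. Relative to the median of all regions, 9 of the 81 (11.1%) were at least 2-fold higher, against 1.64% of the other distal regions. No test is attached to these shares, since there was 1 library per genotype and regions are not replicates.

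**Figure D2:**
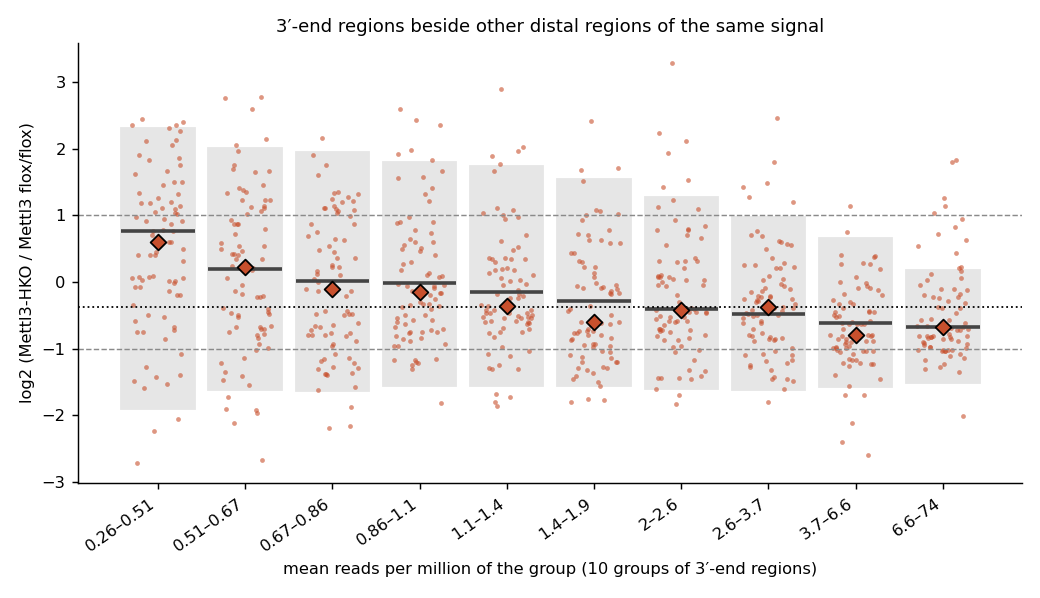
Log2 ratio between the libraries (Mettl3-HKO over flox/flox) for the 805 regions at 3′ ends (red points, spread sideways within a group) in 10 groups of mean RPM, with their medians (diamonds). Grey boxes span the 5th to 95th percentile of other distal regions of the same RPM and dark bars their medians; dashed lines mark 2-fold, the dotted line the median of all regions. Medians run from 0.60 in the weakest group to −0.67 in the strongest, where 5 red points lie above the upper 2-fold line.

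Of the 8 strongest 3′-end regions, all but that of *Tmem243* lay at genes on the hepatocyte lists. *Serpina3k*, a serine protease inhibitor secreted by hepatocytes, had the strongest region of all (chr12:104345107-104348710, 3604 bp, centred 764 bp beyond the 3′ end). It had 2309 counts in *Mettl3* flox/flox and 6060 in *Mettl3*-HKO, a log2 ratio of 1.26 (95% interval 1.19 to 1.33), or 1.63 relative to all regions. *Serpina3k* has close paralogs in a cluster, so the placing of its reads is uncertain. *Ahsg*, which encodes the plasma protein fetuin-A, had 2877 and 4890 counts over 2987 bp that spanned its 3′ end (chr16:22898172-22901158), a log2 ratio of 0.63 (0.56 to 0.70).

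The other regions described here from among the 8 strongest were lower in *Mettl3*-HKO on the deposited scale. *Igfbp1*, a binding protein of insulin-like growth factors, had 3151 and 3011 counts over 2576 bp that spanned its 3′ end, centred 803 bp beyond it, a log2 ratio of −0.20 that turns to 0.18 relative to all regions. *Tat*, which breaks down tyrosine, had 1 region centred on either side of its 3′ end, with 2261 and 1536 counts inside (−0.69) and 2437 and 1533 beyond (−0.80). *Pck1*, the cytosolic enzyme that commits carbon to gluconeogenesis, had 2387 and 1235 counts beyond its end (−1.09) and 851 and 568 counts in its last exon (−0.72). The region behind *Tmem243*, at the *Dmtf1* start printed above, had a log2 ratio of −0.37, or 0.01 relative to all regions.

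**Figure D3:**
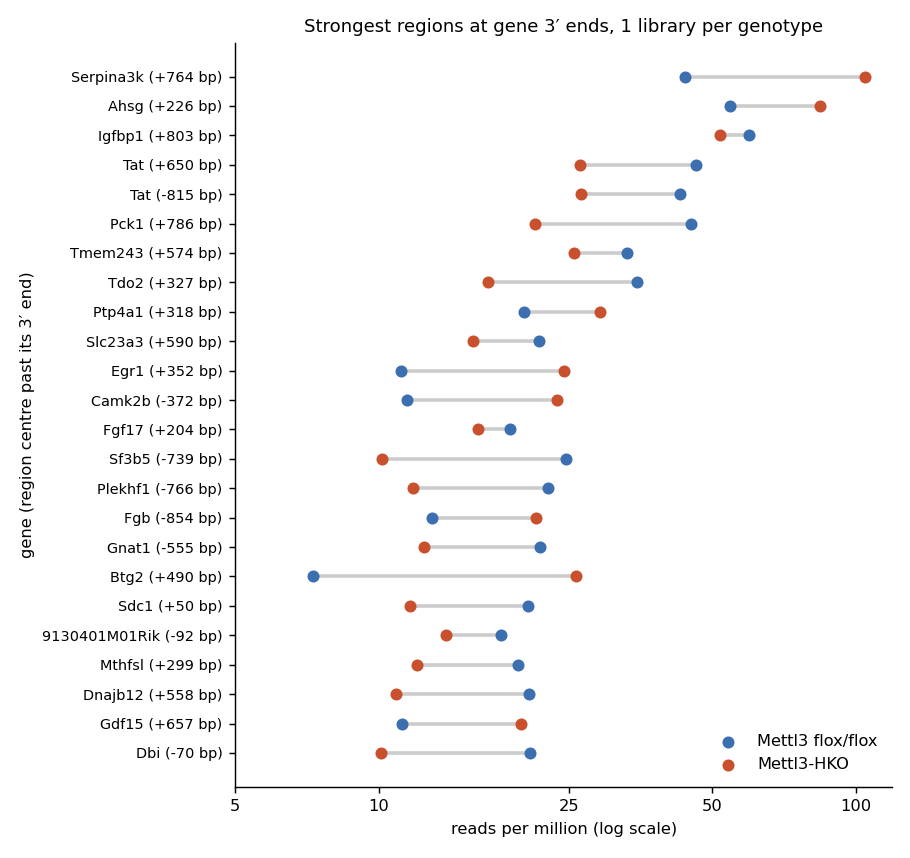
RPM, the reads scaled to the library total (log axis), of 24 of the strongest 3′-end regions of genes with a symbol, 1 library per genotype and no error bars, with the position of each region's centre past the 3′ end in parentheses. Blue points are Mettl3 flox/flox and red points Mettl3-HKO; red lies to the right at Serpina3k, Ahsg, Ptp4a1, Egr1, Camk2b, Fgb, Btg2 and Gdf15.

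The 5 regions of the strongest group that were at least 2-fold higher were at *Serpina3k*, *Btg2*, *Hpx*, *Egr1* and *Camk2b*; *Egr1*, *Camk2b*, *Gdf15*, *Ripply1* and *Ptp4a1* are named here after their values were seen. *Btg2*, an antiproliferative protein that recruits the deadenylase complex, had 383 and 1503 counts in a region centred just beyond its 3′ end (chr1:134074014-134075346), a log2 ratio of 1.83 (1.67 to 2.00). Its 3 other regions, the promoter included, had log2 ratios from 0.09 to 0.14. *Hpx*, which encodes the haem-binding plasma protein hemopexin, had 240 and 922 counts (chr7:105590123-105591526), a log2 ratio of 1.80 (1.60 to 2.02). The 3 other regions of *Hpx* had log2 ratios from −0.66 to −0.07. *Egr1*, an immediate early zinc finger transcription factor, had 586 and 1420 counts (1.14), and *Camk2b*, a subunit of a calcium-dependent kinase, had 605 and 1370 counts in a region centred in its last exon (1.04).

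Relative to the median of all regions, *Ahsg*, *Fgb*, *Gdf15* and *Ripply1* joined them past 2-fold. *Fgb*, the beta chain of fibrinogen, had 681 and 1238 counts over 1447 bp inside its 3′ end (0.73), while the next region, centred 262 bp beyond that end, had 409 and 342 (−0.39). *Gdf15*, a stress-induced hormone, had 591 and 1153 counts (0.83), and *Ripply1* had 329 and 698 (0.95). *Ptp4a1*, a protein tyrosine phosphatase, had 1062 and 1690 counts (0.53) and stayed short of 2-fold on either scale.

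Comparing a 3′ end with the promoter of the same gene removes the scaling of the libraries. A region within 1000 bp of the own TSS was present for 386 of the 3′-end regions, at 355 genes. The 3′-end log2 ratio exceeded that of the strongest promoter region by a median of 0.27, and other distal regions of the same signal exceeded that of their own promoters by 0.34. At 92 of 386 (23.8%) the 3′ end was at least 2-fold above its promoter, and at 29 (7.51%) at least 2-fold below. Over all 19235 distal regions with a promoter region these shares were 25.5% and 7.76%. Across the 386 regions, which share both libraries and in part their genes, the 2 log2 ratios had a Pearson correlation of 0.23 and a Spearman correlation of 0.29.

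Within the strongest group, 9 of 50 3′-end regions with a promoter region (18%) were at least 2-fold above it, against 4.06% of 1652 other distal regions. Most of the 9 were already named above for their ratios. The median difference was 0.08, against −0.03 for the other distal regions, and some members lay at least 2-fold below, such as ENSMUSG00000097354 (−2.28). *Hpx* had a promoter at 988 and 892 counts, so that its 3′ end stood 2.08 log2 units above it (1.84 to 2.33, 95% Wald interval). The *Btg2* promoter had 1021 and 1234 counts, 1.70 (1.495 to 1.90) below its 3′ end. At *Serpina3k* the promoter had 487 and 602 counts and the difference was 1.09 (0.90 to 1.27), and at *Ahsg* it had 835 and 646 counts and the difference was 1.13 (0.97 to 1.30). The *Egr1* promoter had 2500 and 2719 counts, with a difference of 1.15 (0.995 to 1.31). At *Pck1* the promoter had 2349 and 1096 counts and the 3′ end differed from it by 0.15 (0.01 to 0.29).

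**Figure D4:**
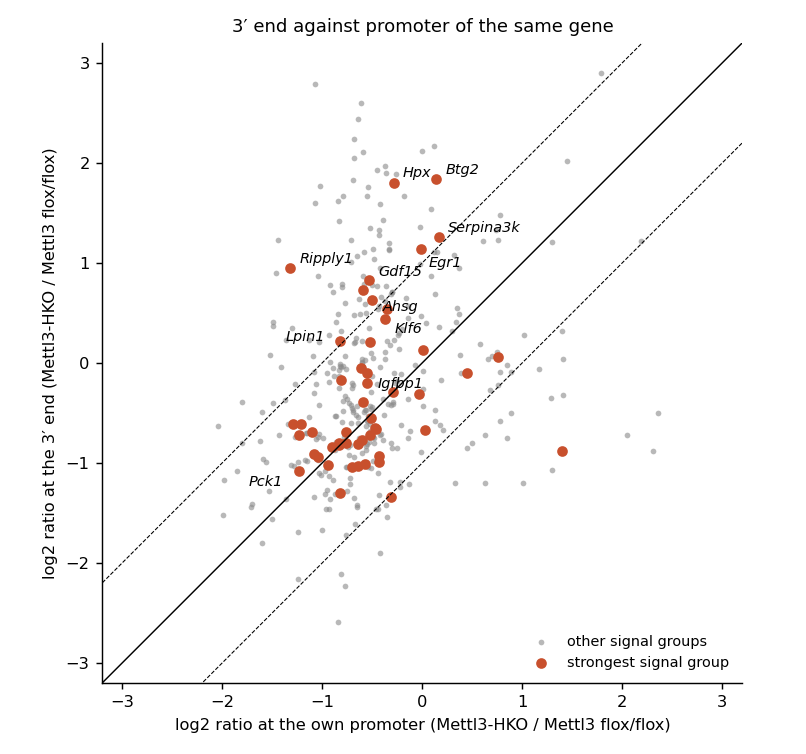
Log2 ratio between the libraries (Mettl3-HKO over flox/flox) at 386 3′-end regions (vertical axis) and at the strongest promoter region of the same gene (horizontal axis). Red marks the strongest of the 10 signal groups, the solid line equal ratios, and dashed lines 2-fold above and below. Hpx, Btg2, Ripply1 and Gdf15 lie above the upper dashed line, and Pck1 lies near the solid line.

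Genes for proteins that hepatocytes secrete had 14 regions at the 3′ ends of 10 of 63 listed genes. Their median log2 ratio was 0.01, or 0.39 relative to all regions, and the median of other distal regions of the same signal was −0.57. Of the 14, 11 lay above that median, 2 were at least 2-fold higher (*Serpina3k* and *Hpx*) and 2 at least 2-fold lower, beside the 13.2% and 18.3% of all regions. Relative to the median of all regions these counts became 4 (with *Ahsg* and *Fgb*) and 0, beside the 20.0% and 7.89% of all regions on that scale. The lower pair were *Serpina1a*, the mouse alpha-1-antitrypsin, with 276 and 149 counts (−1.02), and the weaker region of *Angptl4*, a lipoprotein lipase inhibitor, with 165 and 71 (−1.34). *Serpina1a* is one of several near-identical copies and its counts are uncertain. At 10 of the 14 regions the interval of the difference from the own promoter lay above 0, and at none below, beside 40.9% and 17.2% of all distal regions with a promoter region and 38.6% and 17.6% of the 386 members. These shares, here and for the lists below, were not taken at the same signal, and an interval is narrower where counts are higher. *Fga*, the alpha chain of fibrinogen, had 119 and 127 counts inside its 3′ end and 82 and 113 beyond it, while its promoter had 653 and 408. Regions of the same gene share their source, and this gene list was chosen with earlier results of these data known.

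Metabolic enzymes and transporters of hepatocytes gave 10 regions at 8 of 90 listed genes. Their median log2 ratio was −0.76, or −0.38 relative to all regions, beside −0.53 for other distal regions of the same signal, and 3 of 10 lay above that median. *Tdo2*, which opens the tryptophan ring, had 1833 and 982 counts (−1.04), and *Pck1* and *Hpd*, an enzyme of tyrosine breakdown with 162 and 65 counts, were the other two at least 2-fold lower. One region was at least 2-fold higher, at *Pklr*, the liver pyruvate kinase, with 18 and 48 counts. Over all regions 18.3% were at least 2-fold lower and 13.2% higher. Relative to all regions the 3 lower calls came down to 1, since *Tdo2* (−0.66) and *Pck1* (−0.71) lost theirs and *Hpd* (−1.06) kept it, beside 7.89% of all regions lower on that scale, and *Pklr* stayed the only higher one, beside 20.0%. The interval of the difference from the promoter lay above 0 at 4 of the 10 regions and below 0 at 2, beside the same 40.9% and 17.2%. *Lpin1*, a phosphatidate phosphatase and coregulator, had 570 and 730 counts at its 3′ end and 908 and 564 at its promoter.

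Liver transcription factors and nuclear receptors had 5 regions at 5 of 75 genes. *Klf6*, a zinc finger factor, had 475 and 709 counts across its 3′ end (0.44) and *Rxra*, the common partner of many nuclear receptors, had 128 and 171 beyond it (0.28). *Xbp1*, a factor of the unfolded protein response, had 57 and 80 counts (0.35). The interval of the difference from the own promoter lay above 0 at these 3 of the 5 regions and below 0 at 1, that of *Nr1d1*, beside the 40.9% and 17.2% of all distal regions with a promoter region. *Nr1d1*, which encodes the circadian repressor REV-ERB alpha, was at least 2-fold lower with 98 and 32 counts (−1.72), and *Arntl*, which encodes the clock activator BMAL1, had 85 and 66 (−0.50).

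Inflammation and chemokine genes had 4 regions at 4 of 48 genes, with a median log2 ratio of −0.63 beside −0.24 for other distal regions of the same signal, and 2 of the 4 were at least 2-fold lower (*Socs3* and *Cxcl12*), beside 18.3% of all regions. Relative to all regions *Cxcl12* lost that call (−0.71) and *Tnfrsf1a* passed 2-fold upward (1.08), which left 1 of 4 in each direction, beside 7.89% lower and 20.0% higher of all regions. Of the 3 regions with a promoter region, the interval of the difference lay above 0 at *Tnfrsf1a* (1.01) and *Cxcl12* (0.76) and below 0 at *Socs3* (−0.94). Among all distal regions with a promoter region, 40.9% lay above 0 and 17.2% below. *Socs3*, the feedback inhibitor of cytokine signalling, had 199 and 71 counts beyond its 3′ end (−1.61, interval −2.04 to −1.23), against 648 and 446 at its promoter. *Cxcl12*, a chemokine, had 57 and 29 counts (−1.09), *Cxcl9*, another, had 87 and 85 (−0.17), and *Tnfrsf1a*, a receptor of tumour necrosis factor, had 61 and 110 (0.70), the last inside an exon of *Plekhg6*. Among the 26 listed genes of the m6A machinery, *Mettl3* itself alone had a region, in its 3′ UTR, with 29 and 22 counts (−0.52, interval −1.40 to 0.32), and its promoter, which the deletion need not change, had 566 and 392. None of the 35 listed genes of 3′-end processing and none of the 25 of histone deacetylation had a region at the 3′ end. Among the cell type markers, *Sox9*, a transcription factor of cholangiocytes, had 2 regions beyond its end with 34 and 59 counts (0.64, or 1.02 relative to all regions) and 19 and 55 (1.35), and its promoter had 520 and 397.

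Among the upper 50% of members by signal whose gene had a symbol, the 3 largest ratios in favour of *Mettl3*-HKO stood at *Gpr183*, *Sat1* and *Selenop*. The filter used the mean RPM of both libraries. *Gpr183*, *Sat1*, *Selenop*, *Kin* and *Rnpepl1* had low counts in *Mettl3* flox/flox and passed it only through *Mettl3*-HKO. Their high ratios were thus in part selected by the filter. Genes without a symbol were not ranked, and ENSMUSG00000109311 among them had a larger ratio, with 23 and 257 counts (3.29). *Gpr183*, an oxysterol receptor of immune cells, had 43 and 264 counts (2.45, interval 2.01 to 2.98) in a region that also lay in an intron of *Ubac2*. *Sat1*, which acetylates polyamines, had 40 and 211 counts behind its end (2.23) and 1648 and 1130 at its promoter. The other 2 *Sat1* regions were also higher in *Mettl3*-HKO, with 36 and 117 counts (1.54) and 14 and 30 (0.91). *Selenop*, the selenium carrier of plasma, had 51 and 247 counts (2.12) in the 3′ UTR of the overlapping gene *Ccdc152*. Past the window, a further *Selenop* region centred 1446 bp beyond the 3′ end had 439 and 1521 counts (1.65), while its promoter had 608 and 666. *Kin* (35 and 128 counts, 1.71), *Rnpepl1* (55 and 177, 1.53) and *Tmem43* (85 and 263, 1.48) completed the 8 together with *Btg2* and *Hpx*. The endothelial and macrophage marker promoters were also higher in *Mettl3*-HKO, by the sums given above, and their part in these ratios was not tested.

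Among genes with a symbol in the same upper 50%, 6 of the 8 largest ratios in favour of *Mettl3* flox/flox lay in regions centred in a 3′ UTR, that of the gene itself or of a neighbour. This count holds for the ranking of genes with a symbol. Here too the filter used the mean RPM, and *Etv4*, *Arhgdia*, *Tekt5* and *Gm10037* passed it only through *Mettl3* flox/flox, where they were high. The count rests in part on members so selected. Of all 805 members 129 (16.0%) were centred in a 3′ UTR, and 25 of these (19.4%) were at least 2-fold lower, beside 19.1% of other distal regions of the same signal. Genes without a symbol were left out of this ranking, and some had ratios as large, such as ENSMUSG00000086544 with 583 and 121 counts (−2.40). *Etv4*, an ETS transcription factor, had 344 and 62 counts in a 932 bp region centred in its 3′ UTR (chr11:101769714-101770645), a log2 ratio of −2.59 (−3.02 to −2.21). Its 4 other regions ranged from −1.86 to −0.85. *Prr18* had 466 and 118 counts (−2.11), *Arhgdia*, an inhibitor of small GTPases, had 154 and 48 (−1.80) and *Tekt5*, a tektin of sperm flagella, had 130 and 41 (−1.78), each centred in the 3′ UTR. *Kiss1*, the precursor of kisspeptin, had 321 and 108 counts (−1.70) in a region that the annotation gives to the 3′ UTR of *Gm28040*, and *Elovl3*, a fatty acid elongase, had 394 and 133 (−1.70) in a region over the 3′ UTR of the neighbouring *Pitx3*. *Gm10037* had 188 and 63 counts (−1.70) and *G6pc2*, a glucose-6-phosphatase of pancreatic islets, had 252 and 90 in its last exon (−1.61). All 8 stayed below the median of all regions by more than 2-fold.

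The 2 genes with 3 regions were *Pqlc2* and *Crygn*. At *Pqlc2*, a lysosomal amino acid transporter, the region centred 594 bp inside the end had 236 and 145 counts (−0.83), the one 164 bp inside had 53 and 53 (−0.14) and the one 759 bp beyond had 129 and 53 (−1.40). The intervals of the last pair, −0.71 to 0.44 and −1.91 to −0.95, did not overlap. At *Crygn*, a crystallin, the 3 regions had 39 and 31, 25 and 28, and 76 and 113 counts, with log2 ratios of −0.46, 0.02 and 0.43 and overlapping intervals (−1.20 to 0.25, −0.80 to 0.87, and 0.0043 to 0.88). For 543 members the gene also had distal regions elsewhere, and the 3′ end lay above the median of these in 276 and below it in 267.

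The authors called peaks in each library. A peak in both libraries was called at 448 regions (55.7%), with a median log2 ratio of −0.46, beside 61.7% of all regions and 55.8% of other distal regions. It was called in *Mettl3* flox/flox alone at 162 (−0.91) and in *Mettl3*-HKO alone at 195 (1.06). These calls stood at 11701 and 14928 of all 69549 regions and at 9201 and 12405 of the 48849 other distal regions. Regions with a call in a single library were chosen by that call, so the signs of −0.91 and 1.06 carry that choice. The calls did not always track depth, as *Btg2* and *Fgb* had a peak in *Mettl3*-HKO alone with 383 and 681 counts in the other library. Regions centred in last exons had a median of −0.14 and those in 3′ UTRs −0.45, beside −0.18 for other distal regions of the signal of either class. Regions inside the gene and beyond its end had medians of −0.35 and −0.33.

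Genes on the study's list of transcripts with an m6A peak in liver held 233 of the 805 regions. Their median log2 ratio was −0.45, and the 572 regions of other genes had −0.24. Other distal regions of the same signal had −0.27 and −0.12, which are means of group medians and thus an unlike statistic. Relative to all regions the medians of the 233 and the 572 were −0.07 and 0.14, so the direction turned for the second. Of the 233, 27 (11.6%) passed 2-fold upward and 45 (19.3%) downward, beside 11.4% and 19.6% of other distal regions of the same signal, and relative to all regions 43 passed upward and 12 downward, beside 20.0% and 7.89% of all regions. Regions of listed genes were the stronger ones, with a median of 1.82 RPM against 1.29.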

How the data were processed

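ATAC-seq reads of 1 pooled library per genotype were trimmed, aligned to GRCm38 with BWA and filtered by the authors, who called peaks with MACS2 in each library and merged them. The counting step is not given in the sources used here. Columns of the authors' own comparison were not used. The authors deposited raw counts and RPM (reads scaled to the library total) per region, and the RPM were reproduced as the count plus 1 over a library total to within 0.00354. Of 74821 rows, 5272 repeated a region and were dropped. From the counts, log2 ratios (1 count added), Clopper-Pearson 95% intervals, a binomial test adjusted over all regions, and Wald intervals of differences from the promoter were computed (Python 3.11.15, scipy 1.17.1), after tests on simulated data. Other distal regions were taken in 10 groups of mean RPM. The 8 strongest members, the 8 highest and 8 lowest ratios in the upper 50% by signal among genes with a symbol, members at genes with at least 3 regions, at marker genes and at *Mettl3*, and up to 4 per gene list are named, and 1 of these is not reported here. *Tdo2*, *Hpd*, *Pklr*, *Lpin1*, *Angptl4* and *Nr1d1* were added from the lists after their values were seen. Members and lists were chosen with earlier results of these data known. RefSeq biotypes were matched by symbol for 519 of 527 members. The list of genes with an m6A peak (6556 identifiers) came from the study's supplement. Alternatives changed the scaling, the added count, the signal filter, the window and the genes.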

Additional observations from a re-analysis of the deposited data

How the results depend on the processing

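Centring on the median of all regions moved the median log2 ratio of 3′-end regions to 0.0424 and that of other distal regions to 0.21, and left 59 at least 2-fold lower. Scaling to the reads in regions gave 0.18 and 0.35, with 200 higher and 38 lower. With 10 counts added, 75 were higher. In the upper 50% by RPM the medians were −0.55 and −0.50, with 28 higher and 84 lower. The remaining counts followed the number of regions kept. A 500 bp window left 389 regions (61 higher, 75 lower), a 2000 bp window 1547 (233 and 289), a distance over 10000 bp 326 (53 and 60), and protein-coding genes 510 (70 and 82). Leaving out regions over a RefSeq start, chosen after seeing the data, left 786 regions (122 and 141). Requiring the distance in every row dropped none. Leaving out regions near another TSS of the deposited table could drop none, since the distance to the closest such TSS had chosen the members. Of the 45 regions given by the naming rule, 2 lost the 2-fold call with 10 counts added, 3 after centring and 4 after scaling to reads in regions, 4 (*Ahsg*, *Fgb*, *Tnfrsf1a* and 1 of *Sox9*) gained it under either rescaling, and no called one changed direction. Among regions named outside that rule, *Tdo2* and the weaker region of *Angptl4* lost the call after centring, and *Gdf15* and *Ripply1* gained it. No paired analysis was possible because each genotype had 1 library. No replicate error could be had, and regions with few counts have wide intervals.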
